A study of Mus musculus with 6 samples.

Results

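The transcripts described here belong to 40 genes by which a cell takes up glucose, breaks it down to pyruvate and lactate, sends pyruvate into mitochondria, or diverts sugar into the hexosamine and UDP-glucuronate routes. They were named as a list by gene symbol and found on 6 whole-transcript arrays of mouse cumulus-oocyte complexes (COCs), which are oocytes wrapped in the somatic cumulus cells of the follicle. Of the 40, 37 had a probe set that names them alone, among 22180 genes tested. Gpi1 and Eno1 had no probe set naming them and are not analysed here, and Aldoa shared its only probe set with Aldoart1.

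The study compared 3 samples of COCs cultured with Torin1 with 3 cultured with DMSO, the vehicle. Torin1 blocks the kinase MTOR at its ATP site, and the label of every sample gives a concentration of 5 µM, that of DMSO included. All groups shared the same origin: wildtype females, given as 21 days old in the growth protocol and as 23 days in the sample characteristics, received 5 IU of equine chorionic gonadotropin for 46 h, and 100 COCs per group were cultured. The medium held 3 mg/ml of albumin and 5 µM milrinone, which blocks the phosphodiesterase PDE3 and so holds the oocyte in meiotic arrest. The culture lasted 14 h by the sample source and 16 h by the growth protocol. The labels speak of separate sets without saying whether these were separate mice or days, and the p-values therefore speak of the variation among these 6 samples alone, part or all of which may be technical.

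Cumulus cells take up glucose for the whole complex, because the oocyte itself uses it poorly and lives largely on the pyruvate that cumulus glycolysis provides. Part of the fructose 6-phosphate of glycolysis is drawn off by glutamine-fructose-6-phosphate transaminase into the hexosamine route, whose end product is UDP-N-acetylglucosamine. A second branch, through UDP-glucose, gives UDP-glucuronate. Both nucleotide sugars are the building blocks that hyaluronan synthase joins into the matrix of the expanding cumulus, and UDP-N-acetylglucosamine also serves protein glycosylation.

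Of 8 hexosamine and UDP-glucuronate genes 4 rose with Torin1, led by Ugdh (4.09-fold) and Gfpt2 (3.16-fold). Of 12 measured glycolytic enzymes 1 rose and 3 fell, and over 6 fits that each left out 1 array the falls numbered 0 to 2. Slc2a1, a glucose transporter gene, rose 2.06-fold, and Pdk2 and Pdk4, kinases that restrain pyruvate entry, fell. In all, 6 of the 37 genes rose, 5 fell and 26 were not called. Over all genes tested, 5.13% were called higher and 6.94% lower, or 12.1% in either direction.

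A call here is an adjusted p below 0.05 from limma (two-sided, Benjamini-Hochberg over all 22180 genes), and every adjusted p below comes from that fit. Levels are log2(intensity + 1), and differences are Torin1 minus DMSO on that scale with their standard error (SE); folds are taken from these differences and understate the change of dim genes. Between replicates, the log2 differences over all genes varied with an SD of 0.204 between Torin1 samples 1 and 2, but of 0.327 and 0.350 between these and Torin1 sample 3, which stands apart. Within DMSO the SD was 0.212 to 0.240. The description of Torin1 sample 3 carries the short name of sample 2. Array medians ran from 11.1 to 11.97 intensity units, and the median gene lay at 4.17 on the log2 scale.

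The makeup of the samples was read from marker lists. All 12 oocyte markers, such as Zp3, Gdf9 and Bmp15, had a difference above 0, between 0.11 and 0.39, and 2 were called higher. Their summed intensity was 5791 to 6336 in Torin1 and 5183 to 5555 in DMSO samples. Of 10 granulosa and cumulus markers 9 were called lower, among them Fshr, Foxl2 and Amhr2. The other, Fst, lay at 9.24 in Torin1 and 9.08 in DMSO without a call, with all Torin1 values above all DMSO values. The sum of all 10 was 2628 to 2950 in Torin1 and 5067 to 5277 in DMSO samples. In bulk samples fewer cells of a type and less RNA per cell cannot be told apart. Among 5 immune markers Cd68 was called higher and Ptprc lay at 3.07 in Torin1 and 3.04 in DMSO. Cd68 lay at 4.93 in Torin1 and 4.39 in DMSO. The other immune markers were dim and not called. Adgre1 lay at 2.91 in Torin1 and 2.84 in DMSO, Lyz2 at 3.49 in Torin1 and 3.43 in DMSO, and Csf1r at 3.57 in Torin1 and 3.47 in DMSO. The immune sum was 61.7 to 66.5 in Torin1 and 51.1 to 56.4 in DMSO samples. Among 5 endothelial markers Cdh5 was called higher. Without a call, Kdr lay at 4.47 in Torin1 and 3.98 in DMSO, and Pecam1 at 5.89 in Torin1 and 5.69 in DMSO. Tek lay at 3.47 in Torin1 and 3.40 in DMSO, and Emcn at 2.42 in Torin1 and 2.45 in DMSO. The endothelial sum was 138.8 to 258.8 in Torin1 and 91.3 to 98.4 in DMSO samples. Among 4 smooth muscle markers Acta2 and Cnn1 were called lower, while Myh11 lay at 6.17 in Torin1 and 6.01 in DMSO and Tagln at 5.16 in Torin1 and 5.09 in DMSO without a call, with a sum of 165.7 to 228.5 in Torin1 and 430.8 to 521.5 in DMSO samples. Among 4 theca and steroidogenic markers Ptch1 was called lower, Hsd3b1 lay at 5.93 in Torin1 and 4.94 in DMSO without a call (adjusted p = 0.297), Cyp17a1 lay at 2.87 in Torin1 and 2.82 in DMSO, and the sum was 115.2 to 204.2 in Torin1 and 218.8 to 263.3 in DMSO samples. Beside these calls, 5.13% of all genes were called higher and 6.94% lower. The part of these marker levels in the results below was not tested.

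The upstream sequences of the 4 risers of the hexosamine and UDP-glucuronate list are shown because these genes carry the main finding. Each run is the 250 bases before the annotated start site, from RefSeq on build GRCm38.p6, written 5′ to 3′ on the gene's strand. Capitals mark the GC box GGGCGG and the forkhead core TGTTTAC, on either strand.
Ugdh, chr5:65435843-65436092, minus strand: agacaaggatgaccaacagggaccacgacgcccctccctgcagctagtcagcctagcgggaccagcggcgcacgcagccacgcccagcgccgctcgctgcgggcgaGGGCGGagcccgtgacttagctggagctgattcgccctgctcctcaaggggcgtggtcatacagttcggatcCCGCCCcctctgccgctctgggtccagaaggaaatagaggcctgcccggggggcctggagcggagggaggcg
Gfpt2, chr11:49793905-49794154, plus strand: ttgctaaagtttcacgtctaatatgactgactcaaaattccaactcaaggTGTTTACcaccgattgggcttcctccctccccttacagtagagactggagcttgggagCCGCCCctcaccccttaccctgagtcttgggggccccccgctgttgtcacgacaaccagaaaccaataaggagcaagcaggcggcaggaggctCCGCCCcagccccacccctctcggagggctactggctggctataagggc
Gfpt1, chr6:87042596-87042845, plus strand: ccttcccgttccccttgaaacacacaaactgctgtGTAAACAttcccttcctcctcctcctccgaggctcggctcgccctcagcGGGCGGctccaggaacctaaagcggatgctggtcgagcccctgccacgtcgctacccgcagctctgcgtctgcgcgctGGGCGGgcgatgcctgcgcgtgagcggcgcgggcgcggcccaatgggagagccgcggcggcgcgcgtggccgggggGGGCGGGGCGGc
Uap1, chr1:170174965-170175214, minus strand: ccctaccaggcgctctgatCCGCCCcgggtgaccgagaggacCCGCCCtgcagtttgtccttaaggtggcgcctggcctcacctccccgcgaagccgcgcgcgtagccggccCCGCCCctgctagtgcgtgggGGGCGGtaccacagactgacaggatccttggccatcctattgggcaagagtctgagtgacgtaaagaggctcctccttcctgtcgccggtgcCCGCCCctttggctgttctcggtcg

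All 4 runs hold the GC box, the letters bound by factors of the Sp family, with 2 in Ugdh, 2 in Gfpt2, 4 in Gfpt1 and 5 in Uap1, where boxes may overlap. Among 37 of the 40 genes a promoter was given, and 26 of these hold it in at least 1 window, including all 7 of the hexosamine and UDP-glucuronate list that had one, beside 35.36% of 27025 genes. The forkhead core was present in 3 of the 37, beside 3.54% of genes. These were Gfpt1 and Gfpt2, the genes of both transaminase isozymes, which rose, and Aldoc, which fell. The core ACGTG, which is part of hypoxia-response elements and of E-boxes, was found in 18 of the 37 and in 18.49% of all genes. The cAMP response element TGACGTCA was found in 1 of the 37 and in 1.77% of all genes. Genes with several start sites have more windows in which a match can lie. The 27025 genes are all those with a promoter given, and were not matched for base content or for expression in these samples. These matches describe letters in a window and are not binding sites.

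**Figure D1:**
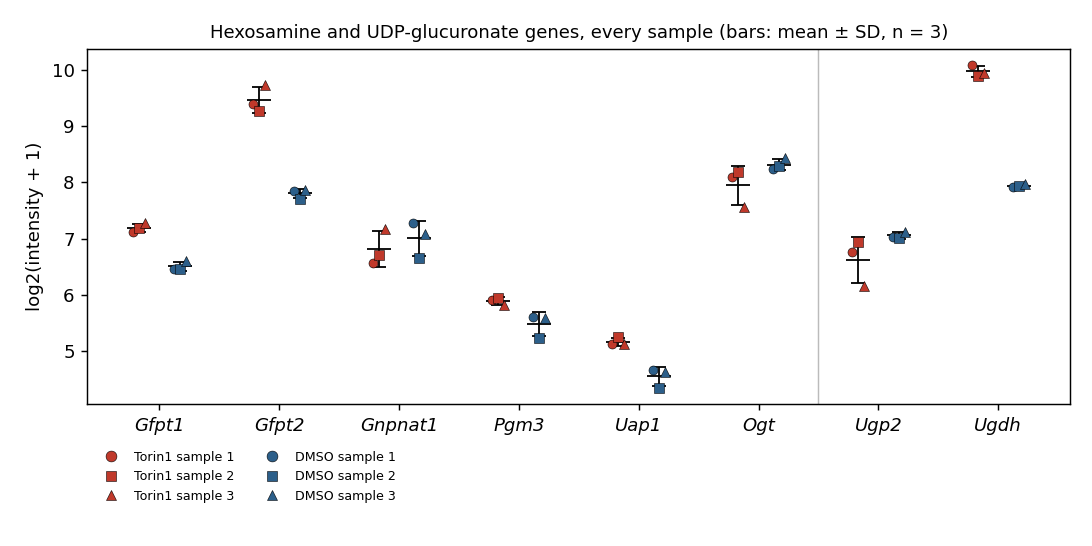
Levels of the 8 hexosamine and UDP-glucuronate genes as log2(intensity + 1) in each of 3 Torin1 samples (red, left of each pair) and 3 DMSO samples (blue, right); marker shapes give the sample number and black bars the mean ± SD. Ugdh, Gfpt2, Gfpt1, Pgm3 and Uap1 sit higher in all Torin1 samples than in any DMSO sample, while Ogt and Ugp2 sit lower.

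The hexosamine route opens with Gfpt1 and Gfpt2, which encode the transaminases that commit fructose 6-phosphate to it. Gfpt2 had log2 levels of 9.40, 9.27 and 9.72 in Torin1 samples 1 to 3, against 7.85, 7.71 and 7.86 in DMSO samples 1 to 3. The groups lie more than 1 log2 unit apart, with Torin1 sample 3 the highest. Gfpt2 rose by 1.66 ± 0.13 (SE; adjusted p = 0.000445), a larger difference than that of 99.3% of all genes. Gfpt1 had 7.12, 7.19 and 7.27 in Torin1, against 6.46, 6.47 and 6.61 in DMSO samples. The values of each group lie close together and do not overlap, and Gfpt1 rose by 0.68 ± 0.08 (adjusted p = 0.00253). Both isozymes were called in each of 6 fits that left out 1 array.

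The middle steps moved less and not all one way. Gnpnat1, which acetylates glucosamine 6-phosphate, had 6.56, 6.72 and 7.17 in Torin1, against 7.28, 6.66 and 7.08 in DMSO samples. The groups overlap, and with a difference of -0.19 ± 0.20 it was not called (adjusted p = 0.697). Pgm3, the mutase that follows, had 5.92, 5.95 and 5.82 in Torin1, against 5.61, 5.25 and 5.60 in DMSO samples. Every Torin1 value is above every DMSO value, but the difference of 0.41 ± 0.12 was not called (adjusted p = 0.0660, and 0.0475 with array weights). Array weights were the only 1 of 9 other settings that called Pgm3, and 0 of 6 leave-outs did (adjusted p up to 0.167). Uap1, whose product makes UDP-N-acetylglucosamine itself, had 5.12, 5.25 and 5.13 in Torin1, against 4.67, 4.35 and 4.64 in DMSO samples. It rose by 0.61 ± 0.11 (adjusted p = 0.0111) and was called in each of the 6 leave-outs; with a pseudocount of 16 the rise was 0.40.

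Ogt, which places N-acetylglucosamine from this pool on nuclear and cytosolic proteins, had 8.10, 8.18 and 7.56 in Torin1, against 8.23, 8.29 and 8.43 in DMSO samples. Torin1 sample 3 is the lowest by far, the groups do not overlap, and the difference of -0.37 ± 0.17 (-0.17 without Torin1 3) was not called (adjusted p = 0.241).

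The glucuronate branch held the largest difference of the list and a gene of opposite sign. Ugdh, the dehydrogenase that turns UDP-glucose into UDP-glucuronate, had 10.08, 9.89 and 9.95 in Torin1, against 7.92, 7.93 and 7.97 in DMSO samples. Both groups are tight, about 2 log2 units apart, and Ugdh rose by 2.03 ± 0.08 (adjusted p = 4.74e-05), above 99.6% of all genes. Ugp2, which supplies UDP-glucose one step earlier, had 6.76, 6.94 and 6.16 in Torin1, against 7.03, 7.02 and 7.12 in DMSO samples. All Torin1 values are below all DMSO values, with sample 3 the lowest, and the difference of -0.44 ± 0.19 was not called (adjusted p = 0.221). It was -0.21 without Torin1 3, and was called with Torin1 samples 2 and 3 averaged (adjusted p = 0.0369).

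As a list these 8 genes had a median difference of 0.51, beside 0.01 over all genes tested. There were 4 rises, 0 falls (also 0 at an unadjusted p below 0.05 in limma) and 4 genes not called, beside 5.13% and 6.94% of all genes. Groups did not overlap in 5 genes upward and in 2 downward, beside 14.3% of all genes in each direction and 28.6% in either.

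**Figure D2:**
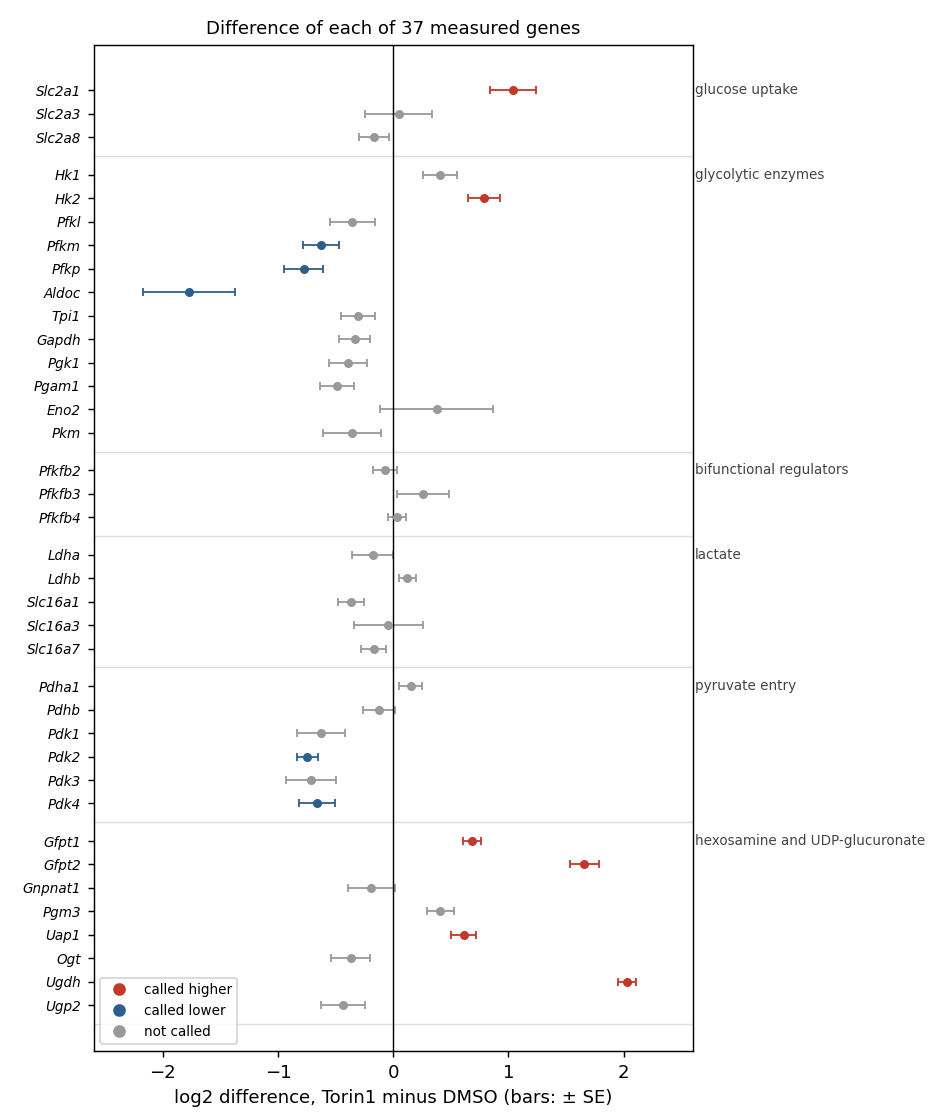
Log2 difference, Torin1 minus DMSO, of each of 37 measured genes grouped by role, with bars of ± SE; red marks called higher, blue called lower and grey not called. Ugdh (2.03) and Gfpt2 (1.66) lie farthest to the right and Aldoc (-1.77) farthest to the left.

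Of 3 glucose transporter genes 1 was called higher, beside 5.13% of all genes. Slc2a1, which encodes the transporter GLUT1, had 9.76, 9.80 and 9.82 in Torin1, against 8.30, 8.80 and 9.16 in DMSO samples. The Torin1 values nearly coincide while the DMSO values spread, with sample 1 the lowest. Slc2a1 rose by 1.04 ± 0.20 (adjusted p = 0.0169), and the call was lost without Torin1 1, Torin1 2 or DMSO 2 (adjusted p up to 0.0555). As the mean of its probe sets it rose by 0.70 (limma, adjusted p = 0.0334). Slc2a3 and Slc2a8, which encode the transporters GLUT3 and GLUT8, differed by 0.05 ± 0.29 and -0.17 ± 0.13 and were not called. Slc2a3 was dim, with means of 4.34 in Torin1 and 4.29 in DMSO, near the median gene.

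The first glycolytic step is the phosphorylation of glucose by hexokinase. Hk2 had 6.69, 6.67 and 6.50 in Torin1, against 5.55, 5.86 and 6.07 in DMSO samples. The groups do not overlap, and Hk2 rose by 0.79 ± 0.14 (adjusted p = 0.0120), called in each leave-out. Hk1 differed by 0.41 ± 0.15 at an adjusted p of 0.148, which became 0.0431 when Torin1 3 was left out.

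Past hexokinase most differences were negative. The 3 phosphofructokinase genes, whose products commit sugar to glycolysis, all had negative differences. Pfkp had 8.32, 8.29 and 7.78 in Torin1, against 8.70, 8.95 and 9.07 in DMSO samples. Torin1 sample 3 is again the lowest, the groups do not overlap, and Pfkp fell by 0.78 ± 0.17 (adjusted p = 0.0271). The call was lost without DMSO 2 or DMSO 3 (adjusted p up to 0.102) and with a pseudocount of 16 (adjusted p = 0.0512). Pfkm had 3.60, 3.74 and 3.58 in Torin1, against 4.08, 4.08 and 4.62 in DMSO samples. These levels lie around or below the median gene, which leaves the extent of the fall, 0.62 ± 0.16 (adjusted p = 0.0436), uncertain. Pfkm was not called without DMSO 1, DMSO 2, Torin1 1, Torin1 2 or Torin1 3, with an adjusted p of up to 0.119, nor with a pseudocount of 16 (adjusted p = 0.100), after centring arrays (adjusted p = 0.0584) or with Torin1 samples 2 and 3 averaged (adjusted p = 0.0638). Pfkl differed by -0.35 ± 0.19 and was not called (adjusted p = 0.346); the difference was -0.14 without Torin1 3.

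Aldolase gave the deepest fall of the whole list. Aldoc, the brain-type isozyme, had 4.08, 4.24 and 4.60 in Torin1, against 5.08, 6.53 and 6.62 in DMSO samples. DMSO sample 1 lies well below the other 2 DMSO samples, yet above all Torin1 values, and Aldoc fell by 1.77 ± 0.40 (adjusted p = 0.0301). The call was lost without Torin1 1, Torin1 2, DMSO 2 or DMSO 3 (adjusted p up to 0.102) and with a pseudocount of 16 (adjusted p = 0.0820). The probe set shared by Aldoa, the ubiquitous isozyme, and Aldoart1 had 4.43, 4.32 and 3.81 in Torin1, against 4.03, 4.63 and 4.86 in DMSO samples, and was not tested.

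No gene of the later steps of glycolysis was called. Gapdh, which oxidises glyceraldehyde 3-phosphate, had 9.94, 9.76 and 9.50 in Torin1, against 9.90, 10.11 and 10.20 in DMSO samples. The groups overlap through DMSO sample 1, and the difference of -0.33 ± 0.13 was not called (adjusted p = 0.182) and became -0.22 without Torin1 3. Pkm, the pyruvate kinase gene, had 8.79, 8.77 and 7.87 in Torin1, against 8.64, 8.86 and 8.999 in DMSO samples. Torin1 samples 1 and 2 lie within the DMSO range and sample 3 below it, so the difference of -0.36 ± 0.25 (adjusted p = 0.499) was -0.05 without Torin1 3. Pgam1, a phosphoglycerate mutase gene, was, beside the called genes, the only glycolytic enzyme gene with groups that do not overlap. It had a mean of 8.39 ± 0.29 in Torin1 and 8.88 ± 0.08 in DMSO (SD, n = 3 each) with an adjusted p of 0.0813, so that it was not called, but it passed as the mean of its probe sets (adjusted p = 0.0395) and with Torin1 samples 2 and 3 averaged (adjusted p = 0.0459). Tpi1 and Pgk1, for triosephosphate isomerase and phosphoglycerate kinase, differed by -0.31 ± 0.15 (adjusted p = 0.282) and -0.39 ± 0.16 (adjusted p = 0.209), and by -0.14 and -0.24 without Torin1 3. Eno2, the neuron-type enolase gene, differed by 0.38 ± 0.49 (adjusted p = 0.762), and by 0.92 without Torin1 3, whose value of 4.91 lies far below 6.64 and 6.44 in the other Torin1 samples.

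**Figure D3:**
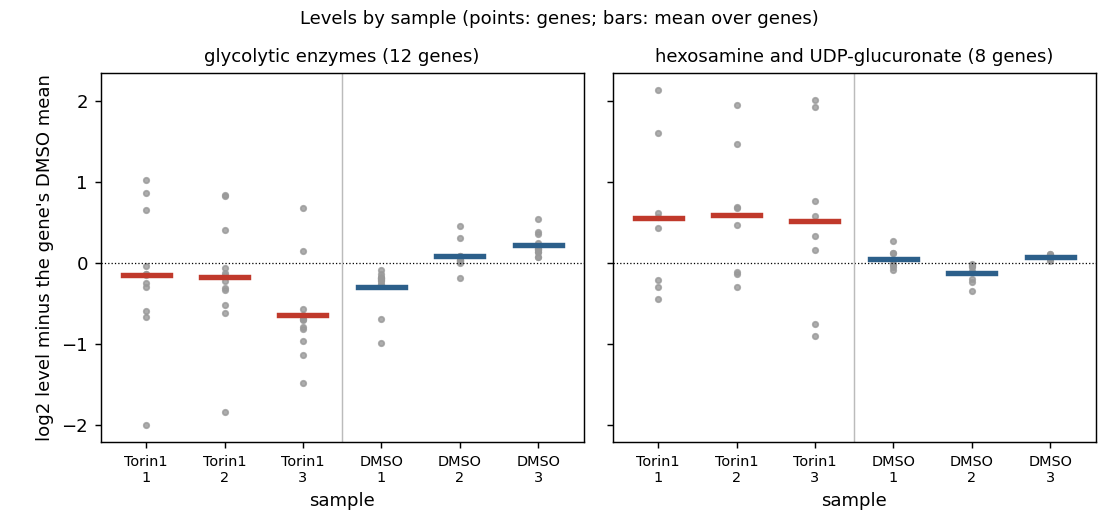
Log2 level minus the gene's DMSO mean for 12 glycolytic enzyme genes (left) and 8 hexosamine and UDP-glucuronate genes (right) in each sample, Torin1 left of DMSO; grey points are genes and bars the mean over genes. The glycolytic mean is lowest in Torin1 sample 3 (-0.64), and DMSO sample 1 (-0.30) lies below Torin1 samples 1 and 2, while the hexosamine means of Torin1 (0.51 to 0.59) lie above all DMSO means.

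By sample, the glycolytic enzymes varied within both groups. Their mean deviation from the DMSO level was -0.14, -0.18 and -0.64 in Torin1 samples 1 to 3, against -0.30, 0.08 and 0.22 in DMSO samples 1 to 3. Torin1 samples 1 and 2 thus lie inside the range of DMSO samples, and sample 3 outside it. Torin1 sample 3 held the lowest Torin1 value in 11 of 12 genes and DMSO sample 1 the lowest DMSO value in 11 of 12, where these samples are the lowest of their group in 34.7% and 34.3% of all genes. For the hexosamine and UDP-glucuronate genes the same mean was 0.55, 0.59 and 0.51 in Torin1, against 0.05, -0.12 and 0.08 in DMSO samples, with no overlap between groups. This mean rests largely on Ugdh (2.03) and Gfpt2 (1.66), and 3 of the 8 genes had a negative difference.

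The 12 glycolytic enzymes had a median difference of -0.35, beside 0.01 over all genes. Of the 12, 9 were below 0, beside 10458 of 22180 genes tested. The median was -0.18 without Torin1 3. Of all genes, 6.94% (1540) were called lower, and over the leave-outs this number ran from 844 to 1694. The 3 falls became 2 without DMSO 1 or Torin1 3, 1 without DMSO 3, Torin1 1 or Torin1 2, and 0 without DMSO 2 or with a pseudocount of 16 (limma, with 4 at an unadjusted p below 0.05 in each of these last fits). Over the whole list the 5 falls became 2 without DMSO 2, DMSO 3, Torin1 1 or Torin1 2, 3 after centring arrays and 1 with a pseudocount of 16. The number of rises in the hexosamine and UDP-glucuronate list was 4 in every leave-out, and its median ran from 0.40 to 0.57.

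The bifunctional regulators Pfkfb2, Pfkfb3 and Pfkfb4 set the level of fructose 2,6-bisphosphate, which activates phosphofructokinase. None was called (0 of 3 in limma, and 0 at an unadjusted p below 0.05), beside 12.1% of all genes called in either direction. Pfkfb3 had the smallest p, with 6.61, 6.68 and 6.07 in Torin1, against 5.81, 6.26 and 6.52 in DMSO samples. The groups overlap, and the difference was 0.26 ± 0.22 (adjusted p = 0.601). Pfkfb2 and Pfkfb4 differed by -0.07 ± 0.11 and 0.04 ± 0.08.

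Lactate formation and its transport across the membrane showed no called gene (0 of 5 in limma, and 1 lower at an unadjusted p below 0.05). Of all genes tested, 12.1% were called in either direction. Groups did not overlap upward in 1 of the 5 and downward in 1, beside 14.3% of all genes in each direction. Ldha, the lactate dehydrogenase subunit that favours lactate, had 7.23, 7.16 and 6.60 in Torin1, against 7.04, 7.15 and 7.34 in DMSO samples. Its difference of -0.18 ± 0.18 (adjusted p = 0.671) was 0.02 without Torin1 3. Ldhb, the other main subunit, had a difference of 0.12 ± 0.08, with all Torin1 values above all DMSO values, and was not called (adjusted p = 0.412). Slc16a1, which encodes the monocarboxylate transporter MCT1, had the smallest p of the group, with 6.52, 6.57 and 6.80 in Torin1, against 7.14, 6.99 and 6.85 in DMSO samples. All its Torin1 values are below all DMSO values, and the difference was -0.36 ± 0.11 (adjusted p = 0.0911, 0.0367 without Torin1 3 and 0.0451 with array weights). Slc16a3 and Slc16a7, which encode MCT4 and MCT2, differed by -0.04 ± 0.30 and -0.17 ± 0.11, and Slc16a7 was dim, at 2.71 in Torin1 and 2.88 in DMSO.

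**Figure D4:**
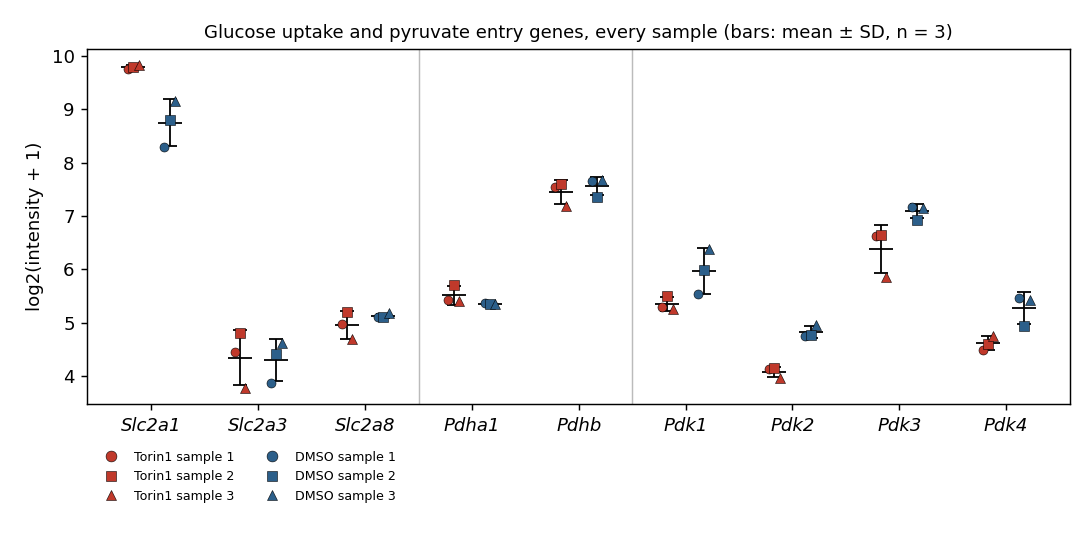
Levels of glucose transporter genes (left), pyruvate dehydrogenase subunit genes (middle) and pyruvate dehydrogenase kinase genes (right) as log2(intensity + 1) in each of 3 Torin1 samples (red) and 3 DMSO samples (blue); marker shapes give the sample number and black bars the mean ± SD. Slc2a1 and, by less, Pdha1 sit higher in all Torin1 samples and Pdk1, Pdk2, Pdk3 and Pdk4 sit lower in all Torin1 samples than in any DMSO sample.

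At the entry of pyruvate into mitochondria, the kinase genes had lower values in Torin1, and the genes of the enzyme's own subunits were not called. The pyruvate dehydrogenase kinases phosphorylate and switch off the pyruvate dehydrogenase complex. Pdk2 had 4.12, 4.15 and 3.97 in Torin1, against 4.75, 4.77 and 4.96 in DMSO samples. The groups are tight and separate, and Pdk2 fell by 0.75 ± 0.09 (adjusted p = 0.00305), called in every leave-out, to a level near the median gene; with a pseudocount of 16 it fell by 0.44. Pdk4 had 4.49, 4.60 and 4.74 in Torin1, against 5.46, 4.93 and 5.42 in DMSO samples. It fell by 0.66 ± 0.16 (adjusted p = 0.0356), and was not called without Torin1 1, Torin1 2, DMSO 1 or DMSO 3 (adjusted p up to 0.127), with a pseudocount of 16 (adjusted p = 0.0696) or after centring arrays (adjusted p = 0.0568).

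The other two kinase genes did not overlap between groups either but were not called. Pdk1, an isozyme known as a target of hypoxia signalling, differed by -0.62 ± 0.21 (adjusted p = 0.109, 0.0257 without DMSO 1 and 0.0200 as the mean of its probe sets), and by -0.42 without DMSO 3. Pdk3 differed by -0.71 ± 0.22 (adjusted p = 0.0851), and by -0.45 without Torin1 3 (adjusted p = 0.0305), and it was also called with Torin1 samples 2 and 3 averaged (adjusted p = 0.0265) and with array weights (adjusted p = 0.04999). Pdha1 and Pdhb, which encode the catalytic subunits of the complex, differed by 0.15 ± 0.10 and -0.12 ± 0.14 and were not called. The 6 genes of pyruvate entry had 0 rises (also 0 at an unadjusted p below 0.05 in limma), 2 falls and a median of -0.64, where 6.94% of all genes were called lower. Groups did not overlap downward in 4 of the 6 and upward in 1, Pdha1, beside 14.3% of all genes in each direction.

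Further genes of the same pathways were taken from a separate list, of which 75 were measured: 7 were called higher, 6 lower and 62 not called, beside 5.13% and 6.94% of all genes. The 7 became 4 without Torin1 1, Torin1 2, DMSO 1 or DMSO 2. Of 3 hyaluronan synthases, Has2 had 9.41, 9.46 and 9.21 in Torin1, against 5.47, 5.89 and 6.14 in DMSO samples, and rose by 3.52 ± 0.17 (adjusted p = 8.17e-05). This enzyme joins the products of the Uap1 and Ugdh steps. Has1 and Has3 lay at 3.36 and 4.47 in Torin1 and at 3.31 and 4.28 in DMSO, with differences of 0.05 ± 0.09 and 0.19 ± 0.09, and were not called.

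In the hexosamine and UDP-sugar part of that list 3 of 23 genes rose and 2 fell, again beside 5.13% and 6.94% of all genes. Gnpda1, whose product runs the deamination opposite to the transaminases, rose by 0.69 ± 0.13 (adjusted p = 0.0159), and was not called without Torin1 1, Torin1 2, DMSO 1 or DMSO 2 (adjusted p up to 0.0624). Pgm2, a phosphoglucomutase family gene, rose by 1.13 ± 0.13 (adjusted p = 0.00232), and Pygb, the brain-type glycogen phosphorylase gene, fell by 1.27 ± 0.12 (adjusted p = 0.00113). Alg13 and Alg14, the paired subunits that add the second N-acetylglucosamine of N-glycans, went opposite ways, with a rise of 0.40 ± 0.09 (adjusted p = 0.0355) and a fall of 0.91 ± 0.12 (adjusted p = 0.00382), which was 0.58 with a pseudocount of 16. Alg13 was called in 1 of 6 leave-outs, the one lacking Torin1 3, with an adjusted p of up to 0.122 in the others, and not with a trended prior (adjusted p = 0.0520).

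Among regulators, Hif1a, the transcription factor of the hypoxia response, rose by 0.80 ± 0.11 (adjusted p = 0.00547). Mlxip, which encodes the glucose-sensing factor MondoA, fell by 0.51 ± 0.09 (adjusted p = 0.00970). Txnip and Arrdc4, related arrestin genes that are both known MondoA targets, differed in sign: Txnip fell by 0.44 ± 0.10 (adjusted p = 0.0271) and Arrdc4 rose by 2.50 ± 0.58 (adjusted p = 0.0333). Arrdc4 had 8.41, 8.55 and 6.21 in Torin1, against 5.27, 5.09 and 5.30 in DMSO samples, so sample 3 is far below the other 2 Torin1 samples. Its rise was 3.25 without Torin1 3 (adjusted p = 3.07e-05), and it was not called in the other 5 leave-outs (adjusted p up to 0.105) or with a pseudocount of 16 (adjusted p = 0.0868). Txnip lost its call without Torin1 1, DMSO 2 or DMSO 3 (adjusted p up to 0.103).

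Around pyruvate and lactate, Emb, a partner protein of monocarboxylate transporters, rose by 1.21 ± 0.19 (adjusted p = 0.00835), and by 0.58 as the mean of its probe sets (adjusted p = 0.00863). Pdp2, a phosphatase that reverses the action of the kinases above, fell by 0.66 ± 0.16 (adjusted p = 0.0394), but was called in 1 of 6 leave-outs, the one lacking Torin1 1, with an adjusted p of up to 0.116 in the others, and not with a pseudocount of 16 or with Torin1 samples 2 and 3 averaged (adjusted p up to 0.0722). Pcx, the pyruvate carboxylase gene, fell by 0.57 ± 0.10 (adjusted p = 0.0124) and was called in all leave-outs; with a pseudocount of 16 it fell by 0.36.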

How the data were processed

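RNA of 3 Torin1 and 3 DMSO samples, grouped by their titles, was amplified as cDNA, labelled with biotin and hybridised, per the labels' protocols. The deposited intensity values, 1 per probe set and array on a linear scale from 2.25 to 3268, were made by the authors with RMA, and per the submitters' processing notes GCOS and Affymetrix Expression Console 1.1 were used; their settings are not given in the sources at hand. RMA imposes a common distribution, so changes are relative to other transcripts. No per-probe background was used, and precision is limited by how few arrays there are.

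Of 41345 probe sets 23521 named 1 gene, 1814 named several and 16010 were unnamed here; Entrez identifiers of 23328 matched RefSeq (GRCm38.p6). The probe set brightest over all 6 arrays stood for each gene. Values were taken as log2(intensity + 1) and fitted with limma 3.58.1 in R 4.3.3 without covariates, and the fit was tested on simulated data. Named were all called genes of the list, the 8 hexosamine and UDP-glucuronate genes, Gapdh, Ldha, Pkm and the smallest p of each role without a call. The members, lists and rules were chosen with earlier results of these data known. Alternatives were 2 pseudocounts, a filter on dim genes, mean probe sets, array centring, a trended prior, array weights, Torin1 samples 2 and 3 as 1 sample, a replicate block and 6 leave-outs.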

Additional observations from a re-analysis of the deposited data

Results flagged for a closer look

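A probe set outside the comparisons was higher in every Torin1 sample than in any DMSO sample, as were 14.3% of genes tested. It names Slc16a3, the gene of the lactate exporter MCT4, together with Csnk1d, a casein kinase gene, and was left out for naming 2 genes. Its log2 levels were 7.43, 7.33 and 7.25 in Torin1, against 7.05, 7.07 and 7.12 in DMSO samples, a difference of 0.26 that was not tested. The probe set naming Slc16a3 alone had a difference of -0.04. Only upward separation was searched for. A probe set naming Gapdh with Gm12070 was separated downward. It had 10.72, 10.59 and 10.44 in Torin1, against 10.76, 10.89 and 11.01 in DMSO samples.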

How the results depend on the processing

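Across 9 other settings and 6 leave-outs, the rises of Ugdh, Gfpt2, Gfpt1 and Hk2 and the fall of Pdk2 were called each time, and Uap1 each time but under the replicate block. With a pseudocount of 16 the falls in the list numbered 1, those of glycolytic enzymes 0 (4 at an unadjusted p below 0.05 in limma), and the hexosamine and UDP-glucuronate median was 0.36. After centring arrays on their median the list had 3 falls. With Torin1 samples 2 and 3 averaged, 1 hexosamine and UDP-glucuronate gene, Ugp2, was called lower (adjusted p = 0.0369), and Slc16a3 turned to 0.0556; array weights turned it to 0.0990. Over the leave-outs the calls over all genes ran from 655 to 1389 higher and 844 to 1694 lower, those in the list from 2 to 6 lower, and those of glycolytic enzymes from 1 to 2 higher and 0 to 2 lower. The hexosamine and UDP-glucuronate median ran from 0.40 to 0.57. Signs of uncalled differences turned in some leave-outs: Slc2a3 ranged from -0.18 to 0.33, Pfkfb4 from -0.0145 to 0.0666, Ldha from -0.29 to 0.0229, Slc16a3 from -0.28 to 0.24 and Pdhb from -0.22 to 0.0094. The causes were not tested.

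Same-numbered samples did not deviate together (r = -0.21, -0.30 and -0.15 over genes for numbers 1, 2 and 3). Across numbers, r was 0.31 for Torin1 1 with DMSO 2, 0.305 for Torin1 2 with DMSO 3 and 0.11 for Torin1 3 with DMSO 1. With 3 arrays a group, deviations from the group mean depend on each other, so these values cannot settle whether samples were paired. With the number as a replicate block, 657 genes were called higher and 908 lower, and the list had 5 rises and 2 falls, with 1 fall among glycolytic enzymes and 3 rises in the hexosamine and UDP-glucuronate list. Uap1, Pfkp, Pfkm, Pdk4, Pcx, Txnip, Arrdc4, Gnpda1, Alg13 and Pdp2 were not called under it (adjusted p up to 0.117), and the further pathway genes had 4 rises and 3 falls; no sample correlated best with its own number. Over the 37 genes, sign and side of the threshold were kept in 190 of 222 leave-out fits and 311 of 332 fits under other settings. Uncalled genes that stayed uncalled with their sign count as kept, and 26 of the 37 were uncalled. A call was lost in 18 leave-out fits, all of Slc2a1, Pfkm, Pfkp, Aldoc or Pdk4, and in 11 fits under other settings. Slc16a7 has no value under the filter on dim genes. Depth does not apply to arrays, and 3 arrays a group limit what small differences can be called.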

Other observations

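Several genes of the list are covered by more than 1 probe set. Of 11 probe sets that name Gapdh, alone or with pseudogenes, 10 had a negative difference, and the range was -0.51 to 0.12. Only 3 of the 11 name Gapdh alone. Most others also name Gm12070, some with equal values in every sample, so the 11 are not independent measurements. The positive one was dim, at 3.49 in Torin1 and 3.37 in DMSO. Both probe sets of Pgam1 gave about the same difference, -0.49 and -0.48. The second probe set of Pdk1 was separated more widely, with 4.50, 4.73 and 4.56 in Torin1, against 5.38, 5.36 and 5.66 in DMSO samples, and as the mean of both Pdk1 was called lower (-0.75, adjusted p = 0.0200). A dim second probe set of Slc2a1 had a difference of 0.36.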
